A study of Mus musculus with 6 samples.

Results

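The 10 genes described here are myeloid genes: Spi1, Cebpa and Cebpb encode transcription factors, Csf1r and Csf3r growth factor receptors, Tyrobp a signalling adaptor, Itgam, Cd14 and Cd209a surface receptors, and Lyz2 a secreted enzyme. They are 10 of the 24885 rows of the count table and were selected on their levels in these same libraries, as myeloid genes with counts in a B lymphoma line. Their own differences between the groups are therefore given as a description, with no test. The libraries came from mouse Eµ-Myc lymphoma cells, driven by a Myc transgene that an immunoglobulin heavy chain enhancer directs to the B lineage. All cells carried Cre-ERT2 and loxP-flanked (fl/fl) alleles of the microRNA cluster miR-17~92. Cells of the floxed genotype (fl, 3 libraries) were compared with cells of the genotype del17-92 (del, 3 libraries). The del cells alone had been given 250 nM 4-OHT, the tamoxifen metabolite that activates Cre-ERT2, for 4 days, and were then subcloned, so that deletion, treatment and subcloning cannot be told apart. Both kinds of cell grew for 48 hours on irradiated Ink4a-null mouse embryonic fibroblast feeder cells before total RNA was taken, and 3′ ends were sequenced from barcoded oligo-dT primers. Whether the libraries within a group were separate cultures or clones is not stated in the labels. The p-values below therefore measure only how far these samples spread, and that spread may be technical.

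As background, PU.1 (the product of Spi1) and the C/EBP factors open and activate most genes of the monocyte and granulocyte lineages. PU.1 is also present at a lower level in B cells, and forced C/EBPα or C/EBPβ can turn B cell precursors into macrophages. The CSF1 receptor carries the signal for macrophage growth and survival, and the CSF3 receptor that for neutrophils. DAP12, the product of Tyrobp, couples activating receptors that have no signalling tail of their own to the kinase SYK. CD11b (Itgam) pairs with the integrin chain CD18, CD14 hands bacterial lipopolysaccharide to its receptor, CD209a is a C-type lectin of the DC-SIGN family, and lysozyme M (Lyz2) cuts bacterial cell walls.

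Total counts per library ran from 6554423 to 9580630 for fl and from 2121796 to 3738720 for del. Depth therefore went with group, and 1 count was worth 0.112 to 0.147 CPM (a gene's counts scaled to a common library total) in fl and 0.263 to 0.474 CPM in del. Levels are CPM on library sizes scaled by TMM factors, given as mean ± SD over n = 3 libraries. Log2 fold changes, with standard errors, are positive where del was higher. Adjusted p-values come from the quasi-likelihood test of edgeR, adjusted after Benjamini and Hochberg over all genes tested, and the threshold was 0.05. Of 10260 genes tested, 65.1% passed it, 32.5% higher and 32.6% lower in del, so a pass was the usual outcome. The host transcript Mir17hg averaged 259 ± 5.997 CPM in fl against 175 ± 28.0 CPM in del (-0.56 ± 0.15 on the log2 scale, adjusted p = 0.00844). Its 3′ tag lies past the microRNAs and does not check the deletion. Against the label of B lymphoma, the summed level of 22 B cell markers was only 157 to 170.2 CPM in the fl libraries, and 1394 to 1534 CPM in the del libraries.

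Most of the myeloid genes that had counts were far higher in del. Summed over the 10 genes, the fl libraries had 112, 106 and 100.4 CPM, and the del libraries 1634, 1589 and 1587 CPM. The groups stood far apart and the libraries within a group close together. Counts were recorded for 8 genes, and all 8 passed the filter on low counts. By the fitted fold change 6 of them (Lyz2, Itgam, Csf1r, Tyrobp, Cd209a and Cebpb) were at least 2-fold higher in del, as were 21.5% of all genes tested. Only Cd14 was at least 2-fold lower, as were 16.0% of all genes tested, and Spi1 was higher by less than 2-fold. The fl and del libraries did not overlap for any of the 8 genes, which held for 69.9% of all genes tested. Because the genes were chosen on this contrast, nothing is read from these shares. The median log2 fold change of the 8 genes was 4.27, and that of all genes tested was 0. The other 2 genes, Csf3r and Cebpa, had no count in any library, so the data do not bear out their description as expressed in these cells. In bulk RNA, more cells of a type and more RNA per cell cannot be told apart, and whether the same cells held the myeloid and the B cell transcripts was not measured.

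**Figure D1:**
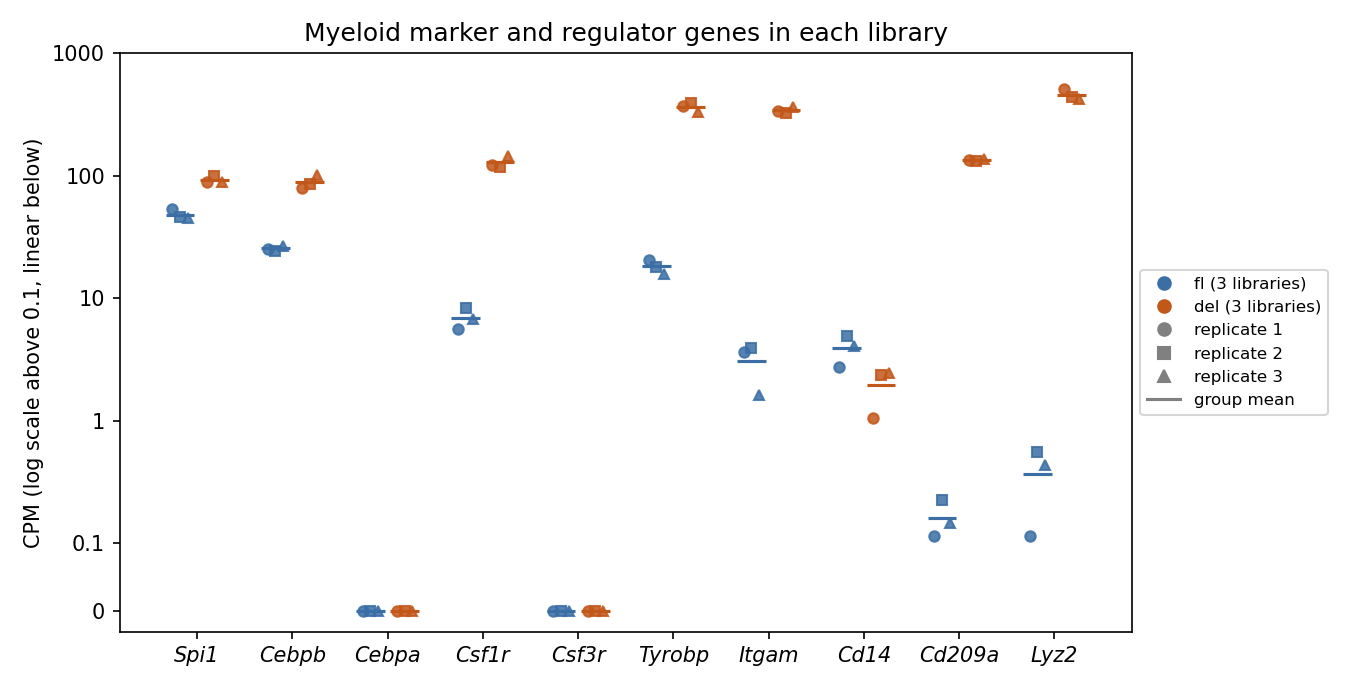
Level of each of the 10 genes in each library (1 point per library, CPM on an axis that is logarithmic above 0.1 and linear below), fl and del side by side, with horizontal bars at the group means. Lyz2 and Cd209a lie below 1 CPM in fl and above 100 CPM in del, Cd14 lies lower in del, and Csf3r and Cebpa are at 0 throughout.

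Among the transcription factors, Spi1 was well expressed in both groups. Spi1 (gene number 20375, chr2:91082374-91115759) was at 53.8, 45.7 and 44.7 CPM in fl, and at 88.2, 99.95 and 88.9 CPM in del. Every del library was above every fl library, and the group means were 48.05 ± 4.98 and 92.4 ± 6.58 CPM (log2 fold change 0.94 ± 0.14). Cebpb (12608, chr2:167688915-167690432) encodes C/EBPβ, a factor of macrophages and of the acute response to cytokines. It was at 25.2, 24.4 and 26.8 CPM in fl and at 79.5, 85.7 and 101 CPM in del, with means of 25.5 ± 1.24 and 88.7 ± 10.95 CPM (log2 fold change 1.80 ± 0.14). The fl libraries lay close together, and del replicate 3 was the highest. Cebpa (12606, chr7:35119293-35121928), which encodes C/EBPα, the factor of granulocyte and monocyte progenitors, stayed at 0 counts. A count of 0 allows up to 3 counts, or 0.123 CPM over the fl group and 0.312 CPM over the del group, for counting error only.

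Of the other C/EBP genes and the Tribbles (TRIB) genes, 4 of 7 tested rose in del and 1 fell. The 71.4% that passed was near the 65.1% of all genes tested, so nothing is read from it. Cebpd, the acute-phase member, rose from 4.16 ± 1.43 to 19.1 ± 1.80 CPM (log2 fold change 2.18 ± 0.24, adjusted p = 5.33e-05). Ddit3, which encodes the stress-induced C/EBP partner CHOP, rose from 3.07 ± 0.416 to 25.0 ± 7.30 CPM (3.04 ± 0.25 on the log2 scale, adjusted p = 9.94e-06). Trib1 and Trib2, whose products drive the degradation of C/EBPα, also passed, at log2 fold changes of 1.92 and 0.72. Trib3, a stress-induced relative that is not known for that role, went the other way, falling from 30.2 ± 1.13 to 6.01 ± 2.32 CPM (log2 fold change -2.28 ± 0.22, adjusted p = 2.68e-05). Cebpz and Cebpg did not pass (adjusted p = 0.179 and 0.255), but without fl replicate 1 Cebpz passed at 0.67 (adjusted p = 0.00589) against 0.37. Cebpe, the factor of late granulocytes, had 10 counts over the fl libraries and 0 over the del libraries and was not tested.

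Other myeloid transcription factors moved with Spi1 and Cebpb more often than against them: 12 of 16 tested rose and 2 fell. In all 87.5% passed, against 65.1% of all genes tested. Gfi1 and Klf4 had 5 and 10 counts over fl and could hardly have been called lower. Id2, an inhibitor of E proteins, rose from 173 ± 22.1 to 339 ± 37.4 CPM (log2 fold change 0.97 ± 0.16, adjusted p = 0.000494). Irf8, listed for its role in monocytes and dendritic cells, rose from 20.5 ± 0.361 to 221 ± 69.2 CPM (log2 fold change 3.43 ± 0.23, adjusted p = 3.40e-06). Klf4, a factor of monocytes, rose from 0.443 ± 0.394 to 43.8 ± 8.995 CPM (6.65 ± 0.36 on the log2 scale, adjusted p = 9.54e-07). Zeb2, which acts in monocytes and dendritic cells, rose from 4.94 ± 0.338 to 410.1 ± 45.9 CPM (6.37 ± 0.18, adjusted p = 7.17e-08). Batf3, the factor of cross-presenting dendritic cells, fell from 14.3 ± 1.13 CPM to 1 count in del, a ratio of 137 (95% counting interval 24.4 to 5426, adjusted p = 3.59e-06). The change in this list was thus not a plain rise of every factor. B lineage factors rose in the same libraries, 15 of 15 tested with a median log2 fold change of 3.79. Of all genes tested, 65.1% passed in either direction. Ebf1, Bcl11a and Spib had 7, 8 and 12 counts over fl and could hardly have been called lower. Ebf1, which commits progenitors to the B lineage, went from 0.263 to 113 ± 28.0 CPM (log2 fold change 8.52 ± 0.41, adjusted p = 6.23e-07). Mef2c, Pou2af1 and Tcf3, the B lineage factor genes of highest mean level, had log2 fold changes of 2.59, 5.04 and 1.45. Pax5, the factor that maintains B cell identity, was uneven in del at 30.0, 49.3 and 147 CPM, against 2.05 to 4.03 CPM in fl.

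The 2 growth factor receptors differed from each other. Csf1r (12978, chr18:61105572-61131139) was at 5.62, 8.28 and 6.74 CPM in fl and at 121, 117 and 145 CPM in del. No fl library came near a del library, and the means were 6.88 ± 1.34 and 128 ± 14.98 CPM (log2 fold change 4.21 ± 0.19). In RefSeq the gene overlaps the microRNA gene Mir6983 and a long non-coding RNA, and how reads shared between them were counted is not stated in the labels. Csf3r (12986, chr4:126023441-126044975) was at 0 counts in all 6 libraries, with the same limits as Cebpa. Its ligand gene Csf3 had 1 count in all, while Csf1, which encodes the ligand of the CSF1 receptor, rose from 9.36 ± 3.23 to 41.0 ± 23.6 CPM (log2 fold change 2.14 ± 0.40, adjusted p = 0.00132). Il34, the other ligand of that receptor, had 33 counts over fl and 0 over del and was at least 4.32-fold lower in del, taking 3 counts for the whole group as the floor. Transcripts of the receptor and of 1 of its ligands were thus both higher in the del libraries.

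Across the list of blood cell growth factors and receptors, 6 of 10 tested genes rose and 1 fell. The 70% that passed was near the 65.1% of all genes tested, so nothing is read from it. Il7r, the receptor chain for the B and T cell growth factor IL-7, went from 0.428 ± 0.338 to 149 ± 30.8 CPM (log2 fold change 8.30 ± 0.34, adjusted p = 2.10e-07). Il6ra (1.57, adjusted p = 0.00101) and Ifngr1 (1.02, adjusted p = 0.00233), receptor chains for IL-6 and interferon-γ, also rose. Csf2rb, the signalling chain shared by the receptors for GM-CSF, IL-3 and IL-5, rose from 5.76 to 99.9 ± 30.6 CPM (4.09 ± 0.27, adjusted p = 2.74e-06), though reads shared with its close copy Csf2rb2 are uncertain. Flt3l, a ligand gene for dendritic cell growth, fell from 7.84 to 3.43 CPM (log2 fold change -1.31 ± 0.30, adjusted p = 0.00396). The receptor genes in this list that changed were those of several lineages, not of 1.

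Tyrobp (22177, chr7:30413782-30417582) is the signalling adaptor of the set. It was at 20.5, 18.1 and 15.8 CPM in fl and at 369, 389.9 and 332 CPM in del, with means of 18.2 ± 2.345 and 364 ± 29.3 CPM (log2 fold change 4.32 ± 0.17). The groups were far apart relative to the spread within each. Hcst lies 130 bases from Tyrobp and encodes DAP10, the related adaptor that recruits PI3-kinase. It moved the opposite way, from 8.08 ± 1.12 to 2.59 ± 0.676 CPM (log2 fold change -1.57 ± 0.27, adjusted p = 0.000653). Fcer1g, the third adaptor of this kind, was high in both groups at 391 ± 27.2 and 599 ± 7.80 CPM (0.62 ± 0.13, adjusted p = 0.00227).

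Of the list of other adaptors, receptors, kinases, phosphatases and further signalling genes of this pathway, 13 of 18 tested rose and 4 fell. The median log2 fold change was 1.66, and 94.4% passed, against 65.1% of all genes tested. Trem2 and Siglech had 1 count each over fl and could hardly have been called lower. Trem2, a lipid receptor of macrophages that signals through DAP12, had 1 count over fl and was at 14.6 ± 1.29 CPM in del, a ratio of 352 (95% counting interval 62.1 to 13990, adjusted p = 1.05e-06). Ptpn6, the phosphatase SHP-1, rose from 127 to 511 ± 165 CPM, and Lyn, a kinase of B and myeloid cells, from 46.4 to 199 ± 51.2 CPM. The myeloid kinase gene Fgr fell from 13.8 ± 1.52 to 0.534 CPM (log2 fold change -4.42 ± 0.38, adjusted p = 1.28e-05). Most genes of the list thus rose, but not all.

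Itgam (16409, chr7:128062640-128118491), the gene of CD11b, was at 3.67, 3.92 and 1.61 CPM in fl and at 337, 324.5 and 359.8 CPM in del. The lowest del library was far above the highest fl library, with means of 3.07 ± 1.26 and 341 ± 17.9 CPM (log2 fold change 6.75 ± 0.28). Its 300-base promoter window is shown because it is the only 1 of the 6 found that holds several matches to the core bound by PU.1. The window runs from 250 bases before the RefSeq start site to 50 after it, on GRCm38.p6. Capitals mark exact matches, on either strand, to GAGGAA (the core bound by PU.1 and other ETS factors) and to TTNNGNAA (a short C/EBP form), where N is any base.
Itgam, chr7:128062390-128062689, plus strand: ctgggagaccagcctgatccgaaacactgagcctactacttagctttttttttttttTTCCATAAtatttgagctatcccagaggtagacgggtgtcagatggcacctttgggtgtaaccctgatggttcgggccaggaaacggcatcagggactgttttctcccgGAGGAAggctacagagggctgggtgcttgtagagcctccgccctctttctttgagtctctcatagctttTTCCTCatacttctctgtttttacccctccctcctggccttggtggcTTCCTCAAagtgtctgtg
It holds 3 matches to the PU.1 core, 84 and 15 bases before the start site and at position 33 with the start site counted as 1, and 2 to the C/EBP form, of which 1 overlaps that last match. Of 32851 promoter windows in the table, 28.3% held the PU.1 core and 40.7% the C/EBP form, and of 8313 tested genes with a window 30.4% and 35.6% did. These matches describe the letters in the window, and no binding was measured.

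Of a list of leukocyte integrin chains, their ligands and their regulators, 6 of 12 tested genes rose and 1 fell. The 58.3% that passed was near the 65.1% of all genes tested, so nothing is read from it. Itgb2, the gene of CD18 without which CD11b is not held at the cell surface, averaged 41.6 ± 3.80 CPM in fl against 46.2 ± 5.27 CPM in del (0.15 ± 0.15 on the log2 scale, adjusted p = 0.382). Itgax, the gene of CD11c that lies 11035 bases from Itgam, was at 4.11 and 4.20 CPM (0.14 ± 0.33, adjusted p = 0.731), and Itgad was at 0 in all libraries. Neither the Itgb2 nor the Itgax test passed, which does not show that the levels were equal. Itga4, an α chain of lymphocyte and monocyte integrins, rose from 1.48 to 91.6 CPM (log2 fold change 5.91 ± 0.21), while Itgb7, a β chain that can pair with it, fell from 98.5 to 22.9 CPM (-2.12 ± 0.16). Tln1, the gene of talin, which activates integrins, rose from 76.4 to 320.4 CPM. Rap1b, a small GTPase that acts upstream of talin, rose by 0.55 on the log2 scale (adjusted p = 0.00368), and Fermt3, the gene of the integrin activator kindlin-3, had 0.63 (adjusted p = 0.0391), a pass lost under 6 other settings (adjusted p = 0.0609 to 0.144).

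Cd209a (170786, chr8:3743395-3748984) went from almost no counts to a steady level. It had 1, 2 and 1 counts in fl and 505, 278 and 508 in del, which is 0.115, 0.224 and 0.147 CPM against 133, 132 and 137 CPM. The del libraries differed from each other less for this gene than for any of the other 7, with a coefficient of variation of 2.2%. At 278 to 508 counts per library, so small a spread over 3 libraries is not read as a property of the gene. The means were 0.162 ± 0.0561 and 134 ± 2.95 CPM (log2 fold change 9.50 ± 0.23). Cd209a had only 4 counts over fl, so this standard error is likely too small. Its promoter window, shown because it belongs to 1 of the 2 genes with the largest differences, holds 1 match to the C/EBP form in capitals, 94 bases before the start site, and none to the PU.1 core.
Cd209a, chr8:3748935-3749234, minus strand: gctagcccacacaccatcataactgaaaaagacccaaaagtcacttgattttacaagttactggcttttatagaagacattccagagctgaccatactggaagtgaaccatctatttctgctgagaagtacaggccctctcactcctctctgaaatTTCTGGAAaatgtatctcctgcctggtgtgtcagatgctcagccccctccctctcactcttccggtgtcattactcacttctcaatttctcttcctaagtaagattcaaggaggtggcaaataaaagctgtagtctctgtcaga
The other genes of the CD209 family were low or at 0. Cd209d, the family member with the most counts after it, had 0 counts in fl and 52 in del, at least 44.2-fold higher by the same floor, and Cd209c had 1 and 19 counts, a ratio of 48.4 (95% counting interval 7.70 to 2011). Cd209b, Cd209e, Cd209f and Cd209g were at 0 throughout. These genes are close copies, so reads shared between them are uncertain. Of 9 dendritic cell and CD209 genes tested, 6 rose and none fell. The 66.7% that passed was near the 65.1% of all genes tested, so nothing is read from it. Among the 6 was Ccr7, listed as a homing receptor of mature dendritic cells. It had 1 count in fl and 17.3 ± 2.27 CPM in del, a ratio of 413 (95% counting interval 73.0 to 16400). Tcf4, listed as a factor of plasmacytoid dendritic cells, rose from 239 to 565 CPM (1.24 ± 0.15, adjusted p = 0.000104). B lineage genes rose in the same libraries, and which cells held the Ccr7 and Tcf4 transcripts was not measured. Cd86, a co-stimulatory ligand, was not called (0.33, adjusted p = 0.0939). Of the 6 that rose, Cd209d, Clec4a2, Ccr7 and Clec4n had 0, 0, 1 and 3 counts over fl, so these could hardly have fallen. Among dendritic cell genes of the list too low to test, Zbtb46 had 27 counts in fl and 5 in del and Cd83 had 3 and 0. In the other direction, Clec10a had 1 and 18 and Xcr1 had 0 and 2. Clec9a and Mgl2 were at 0 throughout.

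Lyz2 (17105, chr10:117277541-117282272) showed the largest difference of the 8. It had 1, 5 and 3 counts in fl and 1915, 923 and 1554 in del, which is 0.115, 0.5595 and 0.440 CPM against 504, 437 and 420.1 CPM. The fl libraries were all below 1 CPM, and del replicate 1 was the highest of the del libraries. The means were 0.371 ± 0.230 and 454 ± 44.5 CPM (log2 fold change 10.19 ± 0.31), and the ratio of the pooled levels was 1243. The fitted value rests on few fl counts and ranged from 9.73 to 12.93 over other settings. Lyz1, the closely related Paneth cell lysozyme gene 5523 bases away, had 0 counts in fl and 1, 1 and 2 in del, so reads that match both are uncertain but few were assigned to Lyz1. The Lyz2 promoter window holds 1 match to the C/EBP form, 55 bases before the start site, and none to the PU.1 core. It is set beside that of Csf3r, a gene at 0 counts. The Csf3r window is placed at a RefSeq start site that lies inside the gene span given above, not at its outer end, and holds 1 match to the PU.1 core, 86 bases before that site.
Lyz2, chr10:117282223-117282522, minus strand: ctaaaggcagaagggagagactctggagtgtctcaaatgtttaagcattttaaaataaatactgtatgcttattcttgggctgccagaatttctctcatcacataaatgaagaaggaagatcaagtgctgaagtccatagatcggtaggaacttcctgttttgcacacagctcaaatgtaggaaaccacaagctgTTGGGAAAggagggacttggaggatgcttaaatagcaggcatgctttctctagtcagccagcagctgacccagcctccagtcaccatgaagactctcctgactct
Csf3r, chr4:126024409-126024708, plus strand: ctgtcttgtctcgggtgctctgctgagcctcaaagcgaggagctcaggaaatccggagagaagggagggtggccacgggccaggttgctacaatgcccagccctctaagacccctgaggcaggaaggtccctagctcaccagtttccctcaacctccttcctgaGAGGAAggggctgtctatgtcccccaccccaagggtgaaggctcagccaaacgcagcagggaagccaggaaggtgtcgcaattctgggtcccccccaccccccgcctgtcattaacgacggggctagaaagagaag
The windows of Cebpa and Cebpb held no match to either form, at GC contents of 67.3% and 80.7%. Windows were found for 6 of the 10 genes. A match to these short forms was thus present in a gene without counts, and both forms were absent from the window of Cebpb, which was expressed.

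Cd14 (12475, chr18:36725064-36726815) was the 1 gene of the 8 that was lower in del, and at few counts. It had 24, 44 and 28 counts in fl and 4, 5 and 9 in del, which is 2.75, 4.92 and 4.11 CPM against 1.05, 2.37 and 2.43 CPM. The groups were close, since the lowest fl library was just above the highest del library. With means of 3.93 ± 1.10 and 1.95 ± 0.779 CPM, the log2 fold change was -1.05 ± 0.40. It was -0.70 without del replicate 1 and -1.34 without del replicate 3, and on total counts without TMM factors the groups overlapped. The lipopolysaccharide receptor genes that work with CD14 as a list had 5 of 11 tested higher, 2 lower and a median log2 fold change of 0.38. The 63.6% that passed was near the 65.1% of all genes tested, so nothing is read from it. Tlr4, the receptor itself, was at 13.0 ± 1.84 and 16.6 ± 2.04 CPM (0.38 ± 0.17, adjusted p = 0.085), and its partner Ly96 (MD-2) rose from 14.4 to 25.5 CPM (0.81 ± 0.18, adjusted p = 0.00337). Cd180, a related receptor of B cells, rose from 16.2 to 103 ± 31.3 CPM (2.67 ± 0.23, adjusted p = 1.22e-05). Ticam1, an adaptor of the interferon branch, fell from 21.3 to 4.56 CPM (-2.27 ± 0.28, adjusted p = 0.000104). The adaptor Myd88 was at 34.7 and 50.4 ± 14.2 CPM (0.54 ± 0.20, adjusted p = 0.0371), a pass that was lost under 6 other settings (adjusted p = 0.0569 to 0.177). Irak1, a kinase downstream of MyD88, was at 82.9 and 89.5 CPM and was not called (0.11 ± 0.12, adjusted p = 0.445).

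**Figure D2:**
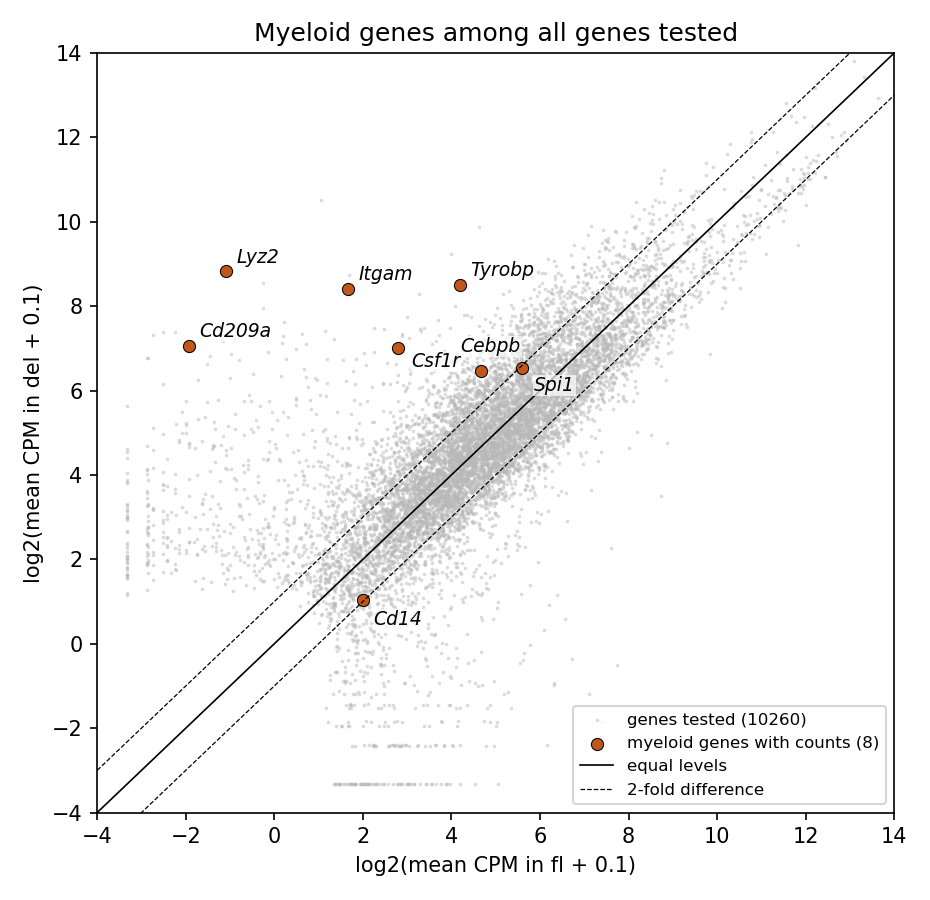
Mean level in del against mean level in fl (both log2 of CPM + 0.1) for all 10260 genes tested (grey) and the 8 myeloid genes with counts (orange), with a solid line at equal levels and dashed lines at a 2-fold difference. Lyz2, Cd209a, Itgam, Tyrobp and Csf1r lie far above the lines, Cebpb above them, Spi1 near the upper dashed line and Cd14 at the lower one.

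The deletion removes 6 mature microRNAs, and their seed sites in the 10 genes were counted as a further property that the choice of genes did not use. The microRNAs whose sites were found are shown with bases 2 to 8, the seed, in capitals.
mmu-miR-18a-5p: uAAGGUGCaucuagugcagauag
mmu-miR-19a-3p: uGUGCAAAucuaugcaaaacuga
mmu-miR-19b-3p: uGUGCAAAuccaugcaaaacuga
mmu-miR-92a-3p: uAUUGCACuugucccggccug
miR-19a and miR-19b share 1 seed, as do miR-17 and miR-20a, so that the cluster has 4 seed families. Sites that pair with a whole seed were found in the longest annotated 3′ UTR of 3 of the 10 genes, and are shown in capitals.
Spi1, miR-18a site, chr2:91115648-91115676, plus strand: gtctggcgctgGCACCTTtttgtatattg
Cd209a, miR-92a site, chr8:3743715-3743743, minus strand: catattgccatGTGCAATtgatcctgagt
Cebpa, miR-19 site, chr7:35121073-35121101, plus strand: atcccttgcttTTTGCACctccacctaca
Cebpa, miR-92a site, chr7:35121433-35121461, plus strand: agcggtgccttGTGCAATggcagtgtgca
Lyz2, Itgam, Csf1r, Csf3r, Tyrobp, Cd14 and Cebpb held none. Over 9734 tested genes with an annotated 3′ UTR, 33.9% held a site of at least 1 family. Their median 3′ UTR length was 1192 bases. Only Csf1r and Cebpa had longer ones (1669 and 1555 bases), and the rest ran from 173 bases (Tyrobp) to 1114 bases (Itgam). A shorter 3′ UTR has fewer places for a site, so the shares are not like for like. Of the 5 genes with the largest differences (Lyz2, Cd209a, Itgam, Tyrobp and Csf1r), Cd209a was thus the only 1 with a site, and no microRNA binding was measured.

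The libraries were then examined for markers of the cell types in which these genes are usually expressed. Of 17 monocyte and macrophage markers tested, 14 rose in del and 2 fell, with a median log2 fold change of 3.50. In all 94.1% passed, against 65.1% of all genes tested. Of those that rose, Ccr2, Msr1, Mrc1, Mpeg1 and Gpnmb had 1, 7, 7, 10 and 10 counts over fl. These could hardly have been called lower, and they raise the median. The summed level of the whole list was 584 to 637 CPM in fl and 2081 to 2172 CPM in del. Ccr2, the chemokine receptor of classical monocytes, had 1 count in fl and was at 109.7 ± 15.5 CPM in del, a ratio of 2612 (95% counting interval 467.7 to 103300, adjusted p = 1.05e-07). The lysosomal protease genes Ctsd and Ctsb rose from 66.0 to 441 CPM and from 161 to 629 CPM, and Fcgr3, a receptor for IgG, fell from 244 ± 9.79 to 81.3 ± 4.601 CPM (log2 fold change -1.59 ± 0.13, adjusted p = 9.95e-06). Among other macrophage genes of the list, Cd68 went from 22.4 to 93.9 CPM, Mpeg1 from 0.409 to 117 CPM, Gpnmb from 0.388 to 35.8 CPM, and the scavenger and mannose receptor genes Msr1 and Mrc1 from 0.285 to 26.3 CPM and from 0.286 to 7.06 CPM, and all 5 passed as higher in del. Other genes of mature macrophages had no counts: Mertk, Cd163, C1qa, C1qb, C1qc, Vsig4 and Chil3 were at 0 in all libraries, and Adgre1, the gene of F4/80, had 3 counts in fl and 8 in del, a ratio of 6.79 (95% counting interval 1.63 to 39.8). Ly6c2, a monocyte gene and the other of the 2 that fell, went from 23.0 ± 4.07 to 9.87 ± 4.56 CPM (log2 fold change -1.18 ± 0.28, adjusted p = 0.0044), opposite to Ccr2. In the same list Cx3cr1 (1.03 to 139 CPM), Sirpa (7.83 to 216 CPM), Cd36 (1.04 to 45.1 CPM), Fcgr1 and Cd300a also passed as higher. The libraries with much Lyz2, Itgam and Csf1r thus held transcripts of some genes of this list and none of others.

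Granulocyte genes went in both directions. Of 7 granulocyte and progenitor markers tested, 4 fell and 3 rose, so that all 7 passed, against 65.1% of all genes tested. Without fl replicate 2, del replicate 1 or del replicate 3 it was 3 and 3. With no count filter 5 rose and 4 fell. Summed over the 23 genes of the list in the table, the level was 128 to 161 CPM in fl and 44.1 to 48.7 CPM in del. Cxcr2, the chemokine receptor of neutrophils, fell from 79.3 ± 18.5 to 0.426 CPM (log2 fold change -7.50 ± 0.37, adjusted p = 5.15e-07). Padi4, the histone-modifying enzyme of neutrophils, was at 33.03 ± 3.28 CPM in fl and at 0 in del, at least 106-fold lower by the floor of 3 counts (adjusted p = 3.06e-06). Il1r2, a decoy receptor for IL-1, fell from 29.4 ± 1.66 CPM to 3 counts, a ratio of 93.7 (95% counting interval 31.9 to 455.3). Mmp8, neutrophil collagenase, moved the opposite way, from 1 count to 17.8 ± 2.25 CPM, a ratio of 438 (95% counting interval 77.6 to 17410). So did Mmp9, from 0.989 to 19.9 CPM (log2 fold change 4.31 ± 0.33, adjusted p = 7.08e-06). Fpr2 had 0 counts in fl and 36 in del, at least 30.6-fold higher by the floor of 3 counts. Of the granule protein genes, Elane fell from 5.08 ± 2.00 to 2.35 ± 0.872 CPM (log2 fold change -1.21 ± 0.41, adjusted p = 0.0271), Camp had 13 counts in fl and 1 in del, and Prtn3 4 and 0. Lcn2 went the other way, with 1 count in fl and 9 in del, a ratio of 22.9 (95% counting interval 3.18 to 1005). Mpo, Ctsg, Ltf and Ngp, also granule protein genes, were at 0 in all libraries, as were S100a9, Retnlg, Ms4a3 and Csf3r.

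**Figure D3:**
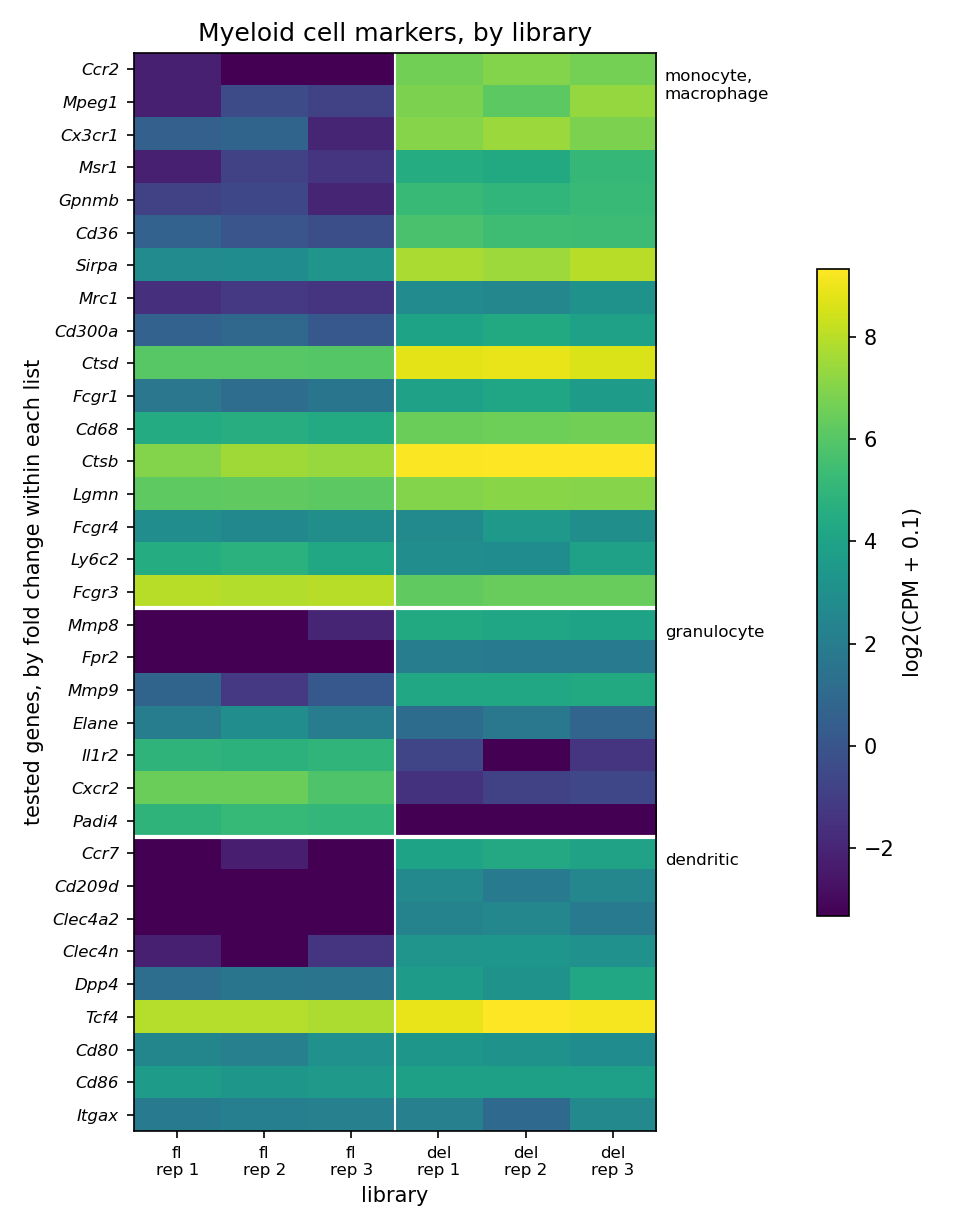
Level of the tested monocyte and macrophage, granulocyte and dendritic cell markers (rows, by fold change within each list) in each of the 6 libraries (columns), as a colour scale of log2(CPM + 0.1). Ccr2, Ctsd and Ctsb are brighter in del, and Fcgr3, Cxcr2 and Padi4 brighter in fl.

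Markers of other cell types moved in the same libraries, and their part in the levels of the 10 genes was not tested. Of 17 B cell markers tested, 15 rose and 1 fell, Cd40, from 16.6 to 2.12 CPM. In all 94.1% passed, against 65.1% of all genes tested. Cd38 was at 2.90 and 1.70 CPM and was not called (-0.79 ± 0.31, adjusted p = 0.052). Some B cell markers were too low to test in both groups. Ms4a1 had 2 counts in fl and 1 in del, Fcer2a 9 and 1, Dntt 23 and 6, Vpreb1 1 and 3, and Igll1 0 and 5. Cd52, Blnk and Cd37 had log2 fold changes of 3.06, 2.71 and 1.38, and Rag1, of the antigen receptor recombinase, had 0 counts in fl and 225 in del, at least 191-fold higher. Rag1, Blk, Ly6d, Cr2, Rag2 and Cd22 had 0, 1, 1, 2, 6 and 9 counts over fl. These could hardly have been called lower. Of 5 fibroblast markers tested, which would mark the feeder cells, 3 rose and 1 fell, so that 80% passed, against 65.1% of all genes tested. The list summed to 23.5 to 41.8 CPM in fl and 28.2 to 50.2 CPM in del. The sums hide opposite changes: Timp1, a protease inhibitor gene, fell from 24.7 to 3.53 CPM (log2 fold change -2.76 ± 0.24, adjusted p = 1.36e-05), and the matrix gene Sparc rose from 1.61 to 10.5 CPM (2.73 ± 0.72, adjusted p = 0.00876). The collagen gene Col1a2 was at 1.05 and 4.31 CPM and was not called (1.94 ± 0.82, adjusted p = 0.0632), though it passed without fl replicate 3 (adjusted p = 0.0377) and without del replicate 1 (adjusted p = 0.0402). Col1a1, with 10 and 28 counts, was not tested. Without fl replicate 3, or without del replicate 1, 7 fibroblast markers passed. T and NK cell markers summed to 27.1 to 33.3 CPM in fl and 6.76 to 9.95 CPM in del, with Lck at 77 counts and 0 counts, Cd5 at a log2 fold change of -2.84 and Cd28 at 1.38. Markers of red cells, megakaryocytes and mast cells summed to 0.803 to 2.46 CPM in fl and 2.90 to 6.49 CPM in del. The 1 gene of that list tested, Fcer1a, a chain of the IgE receptor, had 0 counts in fl and 39 in del, at least 33.1-fold higher (adjusted p = 0.00023), while Klf1 had 12 and 3 counts and Mcpt4 11 and 1.

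**Figure D4:**
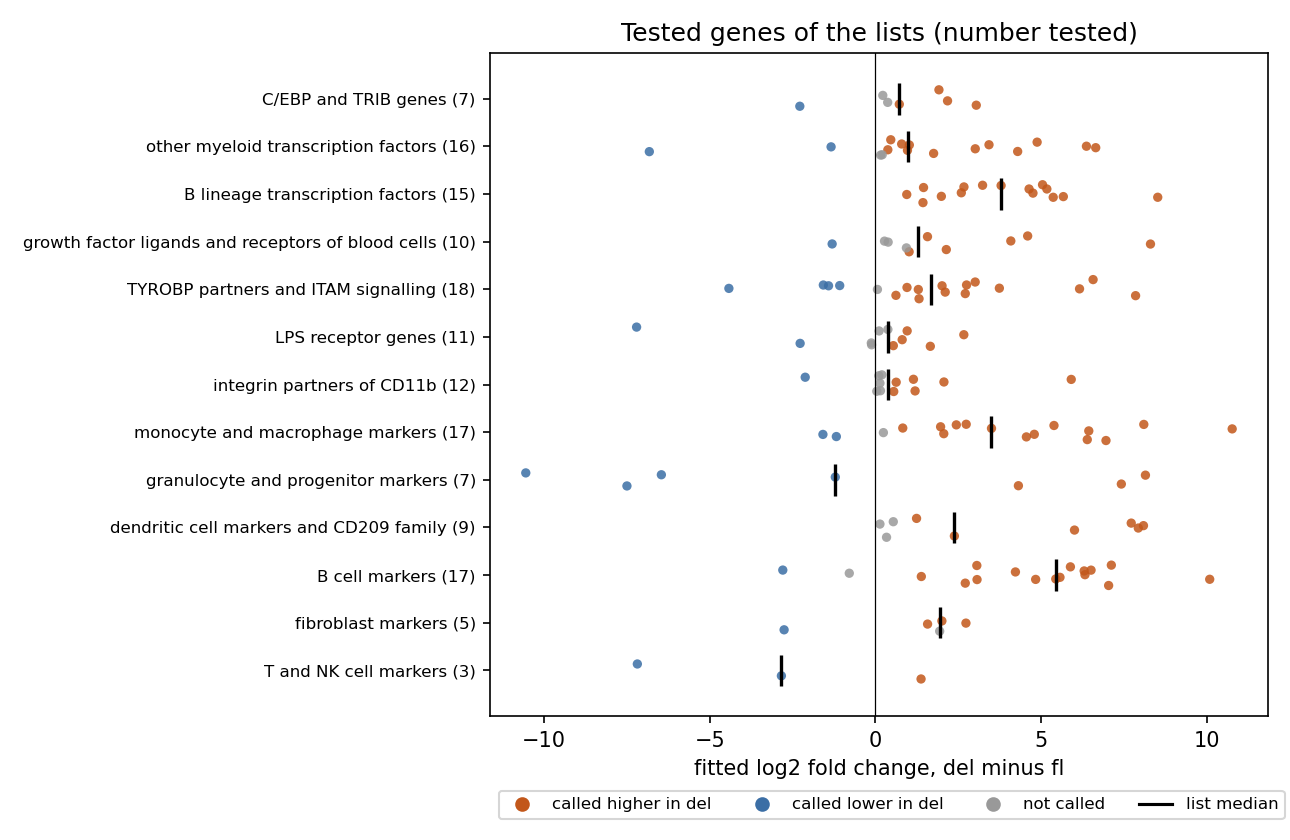
Log2 fold changes (del minus fl) of the tested genes of each list (1 point per gene) coloured by call, with the list median as a bar and the number tested in parentheses. The list of red cell, megakaryocyte and mast cell markers is not shown. The B lineage lists lie almost wholly above 0, the monocyte and macrophage list mostly above 0, and the granulocyte list on both sides; values of genes at 0 in a group depend on the prior count.

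The genes next to the 10 on the chromosome were compared as well. Hmgxb3, 138 bases from Csf1r, had a log2 fold change of 0.22 (adjusted p = 0.407), and Pdgfrb, the related receptor gene on its other side, had 1 count in each group. Slc39a13 near Spi1 (-0.27, adjusted p = 0.364) and Mrps15 near Csf3r (-0.19, adjusted p = 0.452) did not pass either. Tmco6 near Cd14 fell, as Cd14 was lower, by 0.62 ± 0.15 on the log2 scale (adjusted p = 0.00478), and Tmem189 near Cebpb fell while Cebpb was higher (-1.01 ± 0.15, adjusted p = 0.000338). Clec4g beside Cd209a had 0 counts in fl and 10 in del, and Lyz1 beside Lyz2 0 and 4, higher like their neighbours but too few to test. With Hcst beside Tyrobp, Itgax beside Itgam and Cebpg near Cebpa included, none of the neighbours tested and named here passed as higher.

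The genes whose profiles lay nearest to each of the 8 were found by Euclidean distance between centred log2 CPM values (prior count 2) over the 6 libraries. With 2 groups so far apart, this measure mostly matches the size of the difference and then the order of the libraries within a group. The nearest to Csf1r was Cd79a, which encodes a chain of the B cell receptor complex, at a distance of 0.25. The nearest to Lyz2 was Ccr1, a chemokine receptor gene of monocytes and neutrophils, at 1.09, and to Itgam Slamf7, a receptor gene of plasma, NK and myeloid cells, at 0.44. Tyrobp lay nearest to Rere (0.24), Cd209a to Phactr1 (0.49), Spi1 to Mau2 (0.09), Cebpb to Stk4 (0.18) and Cd14 to Atp8b2 (0.39). Within del, the 8 genes did not rank the libraries alike: replicate 1 was highest for Lyz2, replicate 2 for Tyrobp and Spi1, and replicate 3 for Itgam, Csf1r, Cd14, Cd209a and Cebpb.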

How the data were processed

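RNA of 6 libraries (3 fl and 3 del) was measured by 3′ RNA-seq. The values are unnormalised gene-level read counts, as deposited. The submitters' processing notes name STAR, HTSeq and mm10, with versions and settings not given in the sources used here. Of 24052 NCBI gene numbers, 23969 matched a RefSeq symbol (GRCm38.p6), and unmatched ones held 0.204% to 1.03% of a library's counts. CPM were computed from the deposited counts with TMM-scaled library sizes.

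Groups followed the labels. Genes kept by filterByExpr entered edgeR 4.0.16 (R 4.3.3, glmQLFit and glmQLFTest with a single group term, Benjamini-Hochberg adjustment over all genes tested), and the script was tested on simulated data. Most genes with 1 to 3 counts in a group carry a ratio of pooled levels and its exact 95% Poisson interval, and intervals and floors cover counting error only. Total counts per library set the precision. Replicates of a group differed by more than sampling noise. Alternatives were DESeq2 1.42.0, other scaling, other filters, a replicate block, thinning to the shallowest library and leaving out each library.

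The 10 genes and all lists were chosen with earlier results of these data known. Named were the 10 genes, per list the 3 of highest mean level and the called genes of largest rise and fall (mean at least 5 CPM), markers at 0, nearest profiles and neighbours. Cebpd, Cebpe, Trib1, Pax5, Cd68, Mpeg1, Gpnmb, Msr1, Mrc1, Ly6c2, Elane, Camp, Prtn3, Col1a1, Csf1, Il34, Csf3, Csf2rb, Tlr4, Ly96, Adgre1, Cd209c, Cd209d, Clec4a2, Clec4n, Clec10a, Zbtb46, Cd83, Xcr1 and Itgb2 were named after their values were seen. So were Gfi1, Bcl11a, Spib, Siglech, Mmp9, Fpr2, Lcn2, Cx3cr1, Sirpa, Cd36, Fcgr1 and Cd300a. The same holds for Blk, Ly6d, Cr2, Rag2, Cd22, Ms4a1, Fcer2a, Vpreb1, Igll1, Dntt and Cd38. Promoter windows and microRNAs are from RefSeq (GRCm38.p6), 3′ UTRs from GENCODE. Some rows are not analysed here.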

Additional observations from a re-analysis of the deposited data

How the results depend on the processing

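Over 13 other settings the signs of the log2 fold changes of the 8 genes held wherever they could be fitted: Lyz2 9.73 to 12.93, Cd209a 9.27 to 9.77, Itgam 6.48 to 6.97, Tyrobp 4.19 to 4.44, Csf1r 4.08 to 4.38, Cebpb 1.67 to 2.00, Spi1 0.81 to 1.02 and Cd14 -1.34 to -0.70. Cd14 fell under the filter in 4 of them. Upper-quartile scaling moved the median of all genes by -0.13. Genes called went from 6676 to 6471 with DESeq2, 5622 after thinning and 6049 to 6479 with 1 library left out.

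With at least 10 CPM in 3 libraries, 2 dendritic cell genes, 1 fibroblast marker and 1 T and NK cell marker passed, and no gene of the erythroid, megakaryocyte and mast cell list was left to test (0). After thinning the counts were 2 for fibroblast markers, 1 for T and NK cell markers and again 0 of the erythroid list, with none tested. With no filter, 11 growth factor genes and 5 T and NK cell markers passed. Leaving out 1 library gave 5 to 7 fibroblast markers against 4. Irak1 reversed to -0.02 with upper-quartile factors. With 1 library left out, Itgax ran from -0.23 (without del replicate 3) to 0.38 and Mrps15 from -0.47 (a pass, without del replicate 3) to 0.00 (without del replicate 2). With all libraries, none of the 3 passed. Sparc no longer passed with no filter (adjusted p = 0.052), nor Tmco6 after thinning (0.0751), and Col1a2 passed with the replicate block (0.0124). The causes were not tested.

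The replicate block gave 6510 calls. Same-numbered libraries deviated from their group means with correlations of 0.083, -0.039 and -0.02, and libraries of unlike number with -0.145 to 0.167. The labels give only numbers, and whether same-numbered samples shared a culture or a batch is not stated. Depth limits Cd14 and every gene near 1 count per library.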
